A study of Mus musculus with 3 samples.

Results

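Glycolysis and the cellular answer to low oxygen were followed through a named list of 35 genes out of the 32285 gene rows of the data. The list was drawn up with earlier results of these data known. All 35 had a row and passed the filter on low counts in the chondrocyte fit. The list holds the facilitative glucose transporters Slc2a1 and Slc2a3, 15 enzymes from hexokinase to lactate dehydrogenase, 3 kinases that set the flux (Pdk1, Pfkfb3 and Pfkfb4), 3 genes that move lactate and acid out of the cell (Slc16a3, Car9 and Car12), 3 of oxygen sensing (Hif1a, Egln1 and Egln3), 3 of mitochondria (Bnip3, Bnip3l and Higd1a), the collagen prolyl hydroxylase genes P4ha1 and P4ha2, and 4 other targets (Ankrd37, Ddit4, Ndrg1 and Adm). Cartilage has no blood vessels, and its cells make much of their ATP by turning glucose into lactate. The transcription factor HIF-1, whose oxygen-labile subunit is encoded by Hif1a, switches on genes of this kind when the EGLN prolyl hydroxylases, which need oxygen, stop marking it for destruction. In endochondral repair chondrocytes mature from a resting and dividing state to a hypertrophic state that makes type X collagen, the product of Col10a1, before vessels invade.

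The cells came from the day 7 callus of 9-week-old female C3H/HeJ mice, described by the submitters as slow to heal, whose femur had been pinned and broken at midshaft. The control library came from mice given the PBS vehicle, the PTH library from mice given PTH 1-34 at 100 µg/kg, and the YKL library from mice given YKL-05-099, an inhibitor of salt-inducible kinases, at 15 mg/kg. All groups carried the same pin and fracture and were injected under the skin daily, and marrow was avoided when the callus was cut out. There was 1 library per group, and the labels do not say how many animals it holds. The series asks whether such inhibitors promote mineralization of a fracture.

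After filtering, 2904 control, 1906 PTH and 598 YKL cells were kept, with medians of 11632.5, 12284 and 25686 unique molecular identifiers (UMIs) per cell. Clusters were called chondrocyte-like (chondrocytes for short) and so on from marker lists. Chondrocytes numbered 1573, 724 and 427, and their 6 clusters each had at least 13 of the 14 chondrocyte markers detected. Cluster 12 also had 14 of the 14 detected but was left unnamed and out of the chondrocytes, since haemoglobin made up 18.6% of its UMIs. It held 115 control, 11 PTH and 2 YKL cells. The 6 chondrocyte clusters differed in their share of the libraries. Clusters 0 and 1 (led by Ucma, Cnmd and Hapln1) held most control chondrocytes, and clusters 2, 3 and 6 most YKL chondrocytes. A total of 13 barcodes occurred in 2 or more libraries, 1 of them among kept cells. Since each treatment is 1 library, treatment and library cannot be told apart, and 95% intervals cover counting error only.

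Most promoters of the list hold the core of the short sequence that HIF complexes recognise. Of the members, 32 matched the RefSeq promoter table (GRCm38.p6); Slc2a3, Bnip3l and Ndrg1 were not matched. The letters ACGTG or GCGTG, searched on both strands in the 250 bases before each start, occurred in 37 of 45 member promoters (82.2%) and in 12679 of all 32851 promoters (38.6%). The same letters are part of the E-box CACGTG and of CpG-rich sequence in general. Member promoters had a median of 14 CpG pairs against 6 for all, and among promoters with at least 8 the letters occurred in 31 of 34 (91.2%) against 62.3% of 14127. Gpi1, Tpi1 and Car12 had no match in this window. Below are 4 promoters of members on which the chondrocyte results turn, 5′ to 3′ in the direction of transcription, with matches in capitals. Car9 (chr4:43506776-43507025, plus strand) and Ankrd37 (chr8:45999851-46000100, minus strand) fell most in the chondrocytes highest in Col10a1 apart from the sparsely counted Slc2a3. Adm (chr7:110627407-110627656, plus strand) rose there, and Bnip3 (chr7:138909507-138909756, minus strand) was highest at intermediate Col10a1.
Car9: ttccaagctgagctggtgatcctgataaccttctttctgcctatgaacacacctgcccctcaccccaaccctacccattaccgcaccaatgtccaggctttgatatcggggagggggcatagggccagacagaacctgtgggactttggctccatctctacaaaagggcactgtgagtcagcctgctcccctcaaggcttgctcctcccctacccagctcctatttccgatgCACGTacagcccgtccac
Ankrd37: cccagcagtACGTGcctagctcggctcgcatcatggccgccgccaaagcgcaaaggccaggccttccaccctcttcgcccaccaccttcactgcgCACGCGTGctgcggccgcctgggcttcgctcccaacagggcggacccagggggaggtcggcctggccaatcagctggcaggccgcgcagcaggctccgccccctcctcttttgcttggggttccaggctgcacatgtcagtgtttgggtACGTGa
Adm: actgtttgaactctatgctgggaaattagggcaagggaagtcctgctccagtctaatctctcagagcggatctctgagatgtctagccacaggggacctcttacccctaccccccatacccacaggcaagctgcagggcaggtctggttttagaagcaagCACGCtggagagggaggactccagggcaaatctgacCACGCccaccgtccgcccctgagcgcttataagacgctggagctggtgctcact
Bnip3: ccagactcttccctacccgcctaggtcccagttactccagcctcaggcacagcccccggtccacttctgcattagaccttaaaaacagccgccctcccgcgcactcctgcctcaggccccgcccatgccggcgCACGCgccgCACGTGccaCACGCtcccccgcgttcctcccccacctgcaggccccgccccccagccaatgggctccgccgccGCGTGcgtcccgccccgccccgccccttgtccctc
The Car9 promoter holds 1 match, 18 bases before the start, and that of Ankrd37 holds 4, the nearest 6 bases before it. The Adm promoter holds 2, the nearest at 54 bases. A match is a run of letters, and no binding was measured.

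Chondrocytes held the highest level of most of these genes. Summed over a class and scaled to a total of 1000000 (CPM), 24 of the 35 members were highest in chondrocytes in each library, among classes of at least 20 cells, as were 6.55% of the 10910 genes of the chondrocyte fit described further on. In the YKL library endothelial cells were the only other such class. Classes come from clusters made with all genes, so these orders are descriptions with no test. The 15 glycolytic enzymes together held 1.58%, 1.21% and 1.32% of chondrocyte UMIs (control, PTH, YKL), against 0.292%, 0.276% and 0.265% in endothelial cells. Gapdh, which oxidises glyceraldehyde 3-phosphate, stood at 5258 CPM in control, 4101 in PTH and 4190 in YKL chondrocytes. In endothelial cells it stood at 894, 876 and 816 CPM, and macrophages came next to chondrocytes at 1898 CPM (control) and 1549 CPM (PTH). Ldha, which makes lactate from pyruvate, was at 2005, 1434 and 1816 CPM in chondrocytes, and the osteoblast lineage was next at 989 (control) and 611 CPM (PTH). Bnip3, a receptor for mitophagy, was at 640, 555 and 720 CPM in chondrocytes and between 22.2 and 29.2 CPM in endothelial cells. Its relative Bnip3l was at 381 and 412 CPM in PTH and YKL chondrocytes and at 174 and 147 CPM in endothelial cells, a narrower gap. P4ha2, a subunit of the enzyme that hydroxylates collagen prolines, was at 685, 555 and 623 CPM against 17.2, 31.9 and 30.2 CPM. RNA set free from broken cells bears on such low values: Col2a1, the cartilage collagen, was itself at 613, 1172 and 326 CPM in endothelial cells, against 31712, 31988 and 36887 CPM in chondrocytes.

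**Figure D1:**
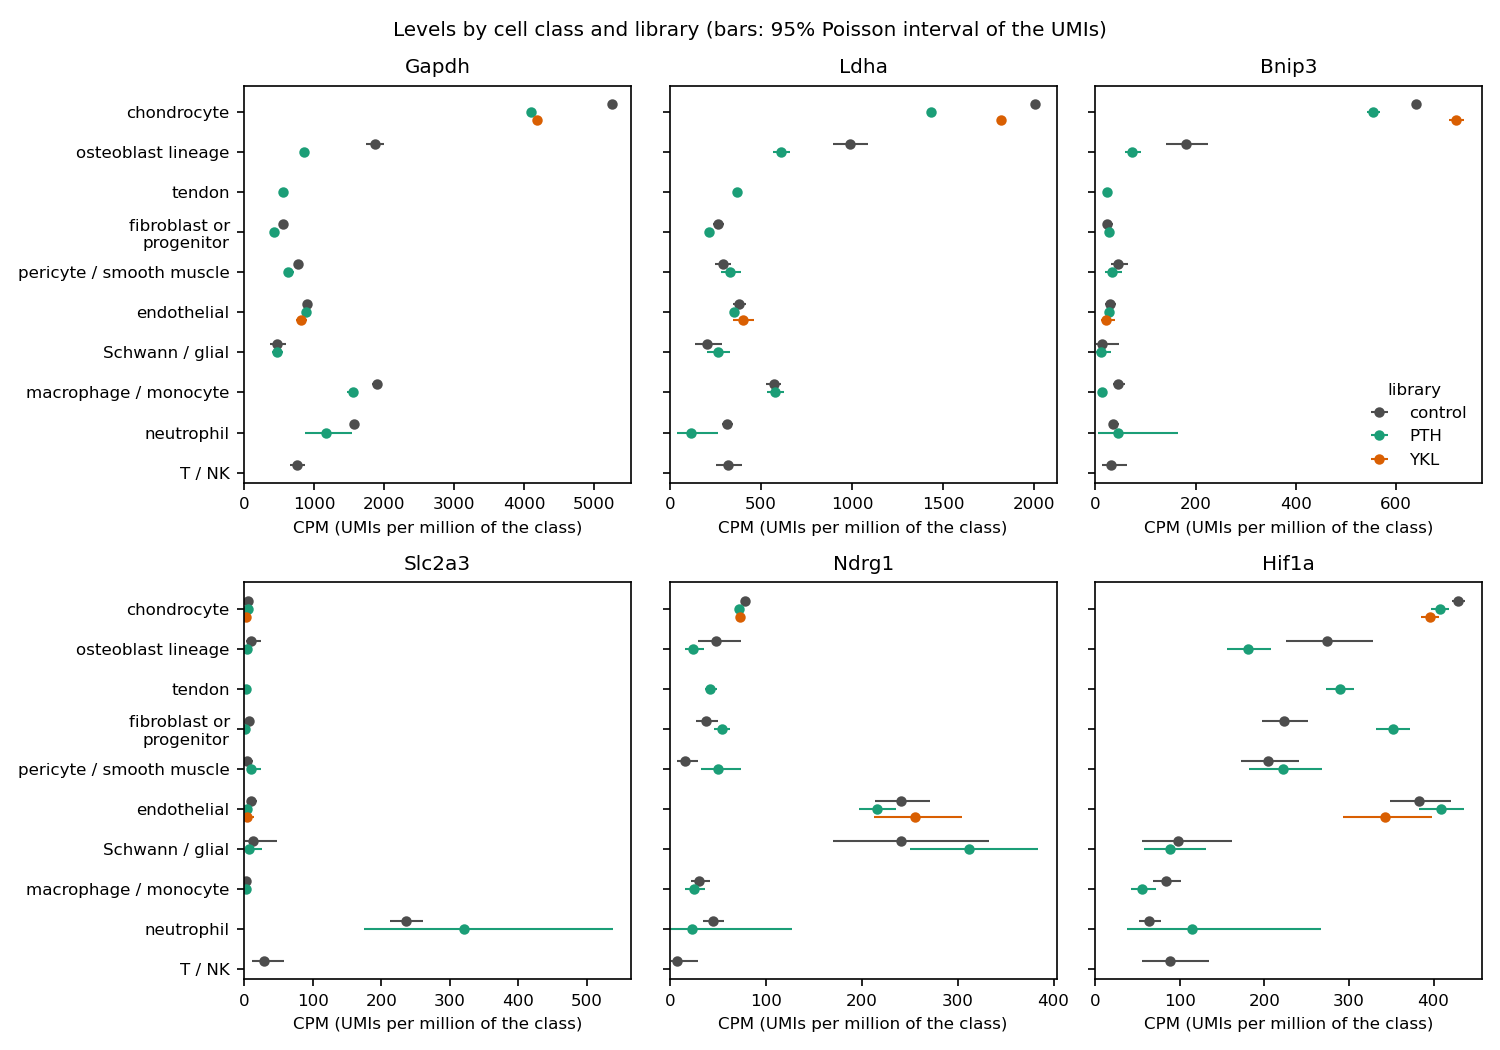
Levels of 6 members (CPM, horizontal axis) by cell class (vertical axis) and library (colour), with 95% Poisson intervals of the UMIs. Gapdh, Ldha and Bnip3 are highest in chondrocytes, Slc2a3 in neutrophils, Ndrg1 in endothelial and Schwann cells, and Hif1a is about level between chondrocytes and endothelial cells.

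The other 11 members had their highest class elsewhere in at least 1 library. Slc2a3, a high-affinity glucose transporter of white blood cells and neurons, was at 236 CPM in control and 320 CPM in PTH neutrophils and at no more than 5.4 CPM in chondrocytes. Pfkfb4, whose product makes and breaks the activator of phosphofructokinase, was at 61.3 and 160 CPM in these neutrophils and at 4.12 to 5.03 CPM in chondrocytes. The lactate exporter gene Slc16a3 and Gpi1, the second enzyme of the pathway, were also higher in neutrophils, at 432 and 710 CPM for Slc16a3 and 426 and 412 CPM for Gpi1. PTH neutrophils were 21 cells. Ndrg1, a stress gene needed by Schwann cells, was at 241 and 312 CPM in Schwann cells, at 241, 216 and 256 CPM in endothelial cells and at 72.6 to 78.1 CPM in chondrocytes. Hk1, the housekeeping hexokinase gene, was at 52.4, 67.4 and 72.5 CPM in endothelial cells, while Hk2 was at 0 CPM in the control and YKL endothelial cells and at 79.5, 87.1 and 133 CPM in chondrocytes. Hif1a itself was at 429, 408 and 396 CPM in chondrocytes and at 383, 409 and 342 CPM in endothelial cells, so that these classes overlapped.

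For members of low level the share of cells with at least 1 UMI was taken after each cell had been thinned to 2000 UMIs. Car9, a membrane carbonic anhydrase that removes acid, was seen in 9.59% (95% exact binomial interval 8.17 to 11.2) of control, 5.82% (4.21 to 7.81) of PTH and 4.83% (2.98 to 7.36) of YKL chondrocytes. Before thinning it was seen in 40.2%, 28.7% and 34.0% of chondrocytes, whose median depth was 16320, 17809.5 and 29692 UMIs. Thinning left out 30, 19 and 13 chondrocytes. In endothelial cells (median depths 5512, 6047.5 and 7707.5) Car9 was seen in 0 of 142, 0 of 252 and 1 of 46 thinned cells, where 0 allows up to 2.11% and 1.19% of cells with a UMI at that depth (3 of the cells counted). Adm, which encodes the vessel-dilating peptide adrenomedullin, was seen in 14.6%, 21.4% and 24.6% of thinned chondrocytes and in 2.11%, 1.19% and 2.17% of endothelial cells. Before thinning, Adm was seen in 42.4%, 46.4% and 65.3% of chondrocytes and in 4.43%, 5.99% and 4% of endothelial cells. Slc2a3 was seen in 37.7% (32.4 to 43.2) of thinned control neutrophils and in 1.10% of thinned control chondrocytes.

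Among the chondrocyte clusters, cluster 2 stood highest. It held 324 control, 119 PTH and 121 YKL cells and was led by 2610528A11Rik, Hapln1, Snorc and Cox4i2, with the member Bnip3 among its leading genes. Of the 35 members, 24 were highest in cluster 2 and 8 in cluster 1, and 20 were lowest in cluster 19, a small cluster with the mitotic genes Hmmr and Cenpf. Pooled over libraries, the ratio of cluster 2 to cluster 0, where Ucma led, had a median of 2.39 and ran from 1.08 (Hif1a) to 37.8 (Adm), and it was at least 1.5 for 30 members. The libraries differed in it: the median was 2.35 in the control library, from 0.847 (Car12) to 27.7 (Adm), and 3.01 in the PTH library, from 0.944 (Hif1a) to 122 (Adm). Within the control library 27 members were highest in cluster 2, and within the PTH library 17 were. The YKL library held 6 cells of cluster 0, too few for a value. Egln3, an oxygen-sensing hydroxylase that HIF itself induces, was at 41.7 CPM in cluster 2, 20.2 in cluster 1 and 2.35 in cluster 0. Ndrg1 was at 187, 97.1 and 18.2 CPM in the same order, and Ankrd37, a small HIF target, at 113, 74.0 and 18.9 CPM. Col10a1 stood at 665, 142 and 94.98 CPM in clusters 2, 1 and 0, against 19435 CPM in cluster 3. Cluster 3 stood below cluster 2 for 32 of 35 members (Gapdh 3126 against 9824 CPM), but Adm stood at 263 CPM there and at 270 CPM in cluster 2, and Aldoc at 123 and 113 CPM. Against cluster 0, cluster 3 was higher for some members (Gapdh 3126 against 2434 CPM, Bnip3 659 against 251, Egln1 250 against 164). For others it was lower (Eno1 719 against 1056 CPM, Pkm 874 against 987, P4ha1 390 against 511). The members were among the genes that made the clusters, so these values describe the clusters and test nothing. No share over all genes was taken beside these cluster counts. They therefore do not tell whether cluster 2 was high for these members in particular or for genes in general.

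**Figure D2:**
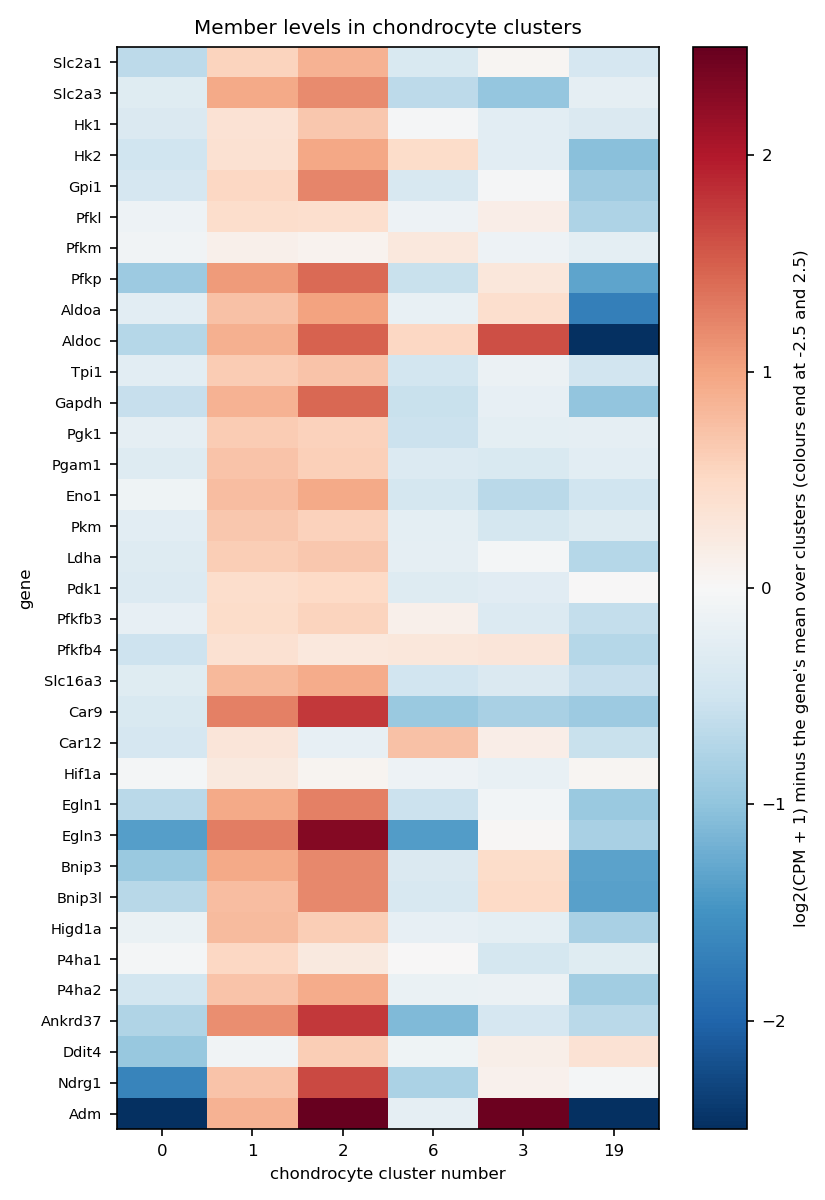
Level of each member (rows) in the 6 chondrocyte clusters (columns), pooled over libraries, as log2(CPM + 1) minus the gene's mean over the clusters. Clusters 1 and 2 are the high columns for most members, cluster 19 the low one, and Aldoc and Adm are also high in cluster 3.

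Chondrocytes were then ordered by the share of a cell's UMIs that are Col10a1. Members enter this measure only through the cell's total of UMIs. Cells under 0.05% were called low, from 0.05% to under 0.5% middle, and 0.5% or more high. Control chondrocytes were 1227 low, 180 middle and 166 high, PTH chondrocytes 514, 113 and 97, and YKL chondrocytes 158, 115 and 154. The states are ranges and not types: within a factor of 1.25 of the upper boundary lay 16 control, 20 PTH and 31 YKL cells, and of the lower 58, 29 and 25. UMIs were summed per library and state and fitted over all genes with edgeR's quasi-likelihood test, with the library as a block and Benjamini-Hochberg adjustment over 10910 genes at 0.05. The 3 libraries, which differ in treatment, are the only replicates. Standard errors (SE) of log2 differences are those of this fit, taken from the difference and its F statistic. They are not the standard error of 3 per-library differences.

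In the chondrocytes highest in Col10a1 most glycolysis and hypoxia genes were lower than in those lowest in Col10a1. Of the 35 members 20 fell, 2 rose and 13 did not pass, with a median log2 difference of −0.46. Over all genes tested the median was −0.02, 21.3% fell and 20% rose. By level, 23 members were lower in the high than in the low state in each of the 3 libraries, as were 35% of all genes, and 29 were lower in the high than in the middle state, as were 29% of all genes. Without the control library 11 members fell and 2 rose, and with boundaries of 0.02% and 0.2% 13 fell and 3 rose. The all-gene shares above are those of the main fit, so these alternative counts cannot be judged against them. The low state mixed clusters: 458 of 1227 control, 191 of 514 PTH and 5 of 158 YKL low cells lay in cluster 0. In that cluster Gapdh and Bnip3 lay below, and Eno1 and Pkm above, their levels in cluster 3. The high state also differed in other ways. Of 12 markers of the osteoblast lineage 6 rose and 3 fell in it, and their summed share of UMIs ran from 2.05% to 3.30% in the high and from 0.510% to 1.34% in the low sums. The rises were in Bglap, Alpl, Ibsp, Spp1, Runx2 and Phex, which late chondrocytes share with bone cells. Ifitm5 and Col1a1 fell, as did Sp7, and Dmp1 stood at 0 in the PTH low and high sums. Summed macrophage markers were at 0.00266%, 0.00208% and 0.000937% of UMIs (control, PTH, YKL) in the low and 0.00601%, 0.00479% and 0.00404% in the high sums. Their median per cell was 0% in the low state and 0.00133%, 0.00424% and 0.00237% in the high state. Neutrophil markers were at 0.00394% in the low and 0.0142% in the high sum of the control library. The neutrophil median per cell was 0% in each state and library. Median mitochondrial shares were 2.35%, 2.78% and 1.32% in the low and 2.02%, 1.77% and 0.838% in the high state. Median UMIs per cell were 14918.5 to 29451 in the high and 16245 to 29743.5 in the low sums. The part of these differences in the result was not tested.

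**Figure D3:**
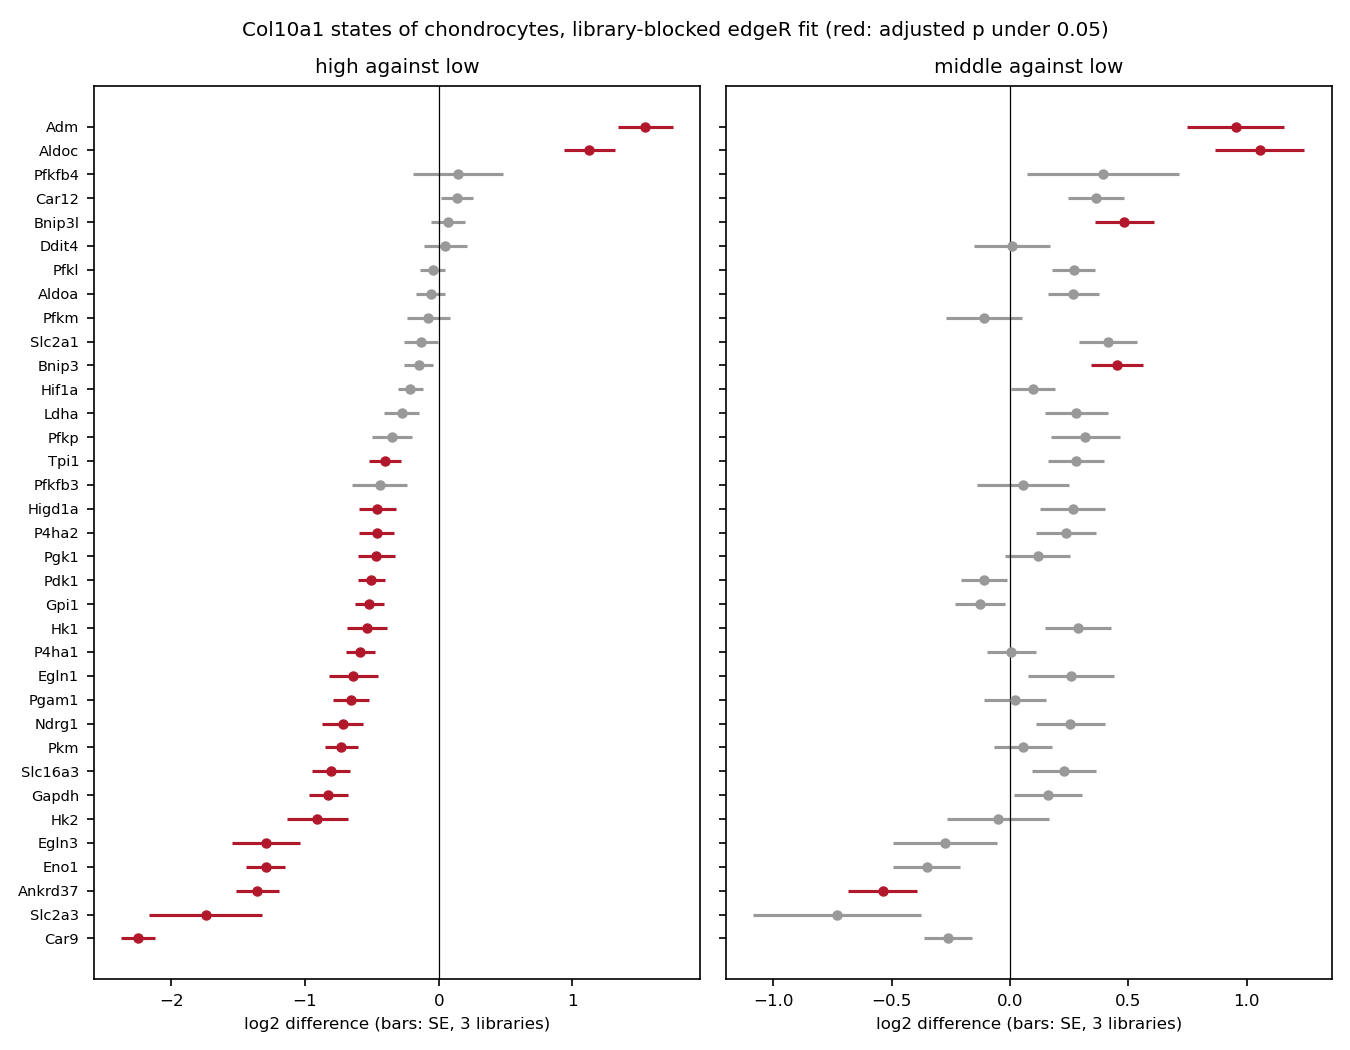
Log2 differences of the 35 members between Col10a1 states of chondrocytes, with standard errors of the edgeR fit to 3 libraries and members past the adjusted threshold in red. Between high and low most red points lie below 0, from Car9 at −2.25 to Tpi1 at −0.40, with Adm and Aldoc above. Between middle and low 5 points are red, 4 of them above 0.

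Glucose entry and the first steps moved unevenly. Slc2a1, the main glucose transporter of many tissues, stood at 145, 96.4 and 132 CPM (control, PTH, YKL) in the low and 100.2, 112 and 116 CPM in the high state, and did not pass. Slc2a3 was at 5.99, 6.04 and 4.59 CPM in the low and 1.18, 2.78 and 1.05 CPM in the high state, where it rested on 3, 5 and 5 UMIs. Hexokinases trap glucose in the cell. Hk2, the inducible one, was at 86.5, 86.7 and 165 CPM in the low and at 22.0, 66.2 and 96.4 CPM in the high state. It fell by 0.91 ± 0.23 (log2, SE of the fit, 3 libraries, edgeR adjusted p = 0.0093). The YKL high value lay above the control and PTH low values, so the states overlapped between libraries. Hk1 fell by 0.54 and Gpi1 by 0.52, and the 3 phosphofructokinase genes Pfkl, Pfkm and Pfkp, which encode the committing step, did not pass. Hk2 lost its call without the library term (edgeR adjusted p = 0.18), and Gpi1 and Slc2a3 without the control library. Hk1 lost its call in 3 of 15 alternatives, among them those without the YKL or the control library.

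In lower glycolysis most members fell. Eno1, which encodes enolase, was at 1676, 1246 and 1581 CPM in the low state, 1192, 1008 and 1347 CPM in the middle and 456, 589 and 753 CPM in the high state. Every high value lay below every middle value. Between low and high Eno1 fell by 1.29 ± 0.15 (SE of the fit, 3 libraries) on the log2 scale (edgeR adjusted p = 7.8e-05). Gapdh went from 5517, 4028 and 5088 CPM to 2324, 2859 and 2815 CPM and fell by 0.82. Pkm, the pyruvate kinase gene, went from 1521, 1103 and 1367 CPM to 738, 775 and 801 CPM and fell by 0.73. In these genes low and high values did not overlap. Pgam1 fell by 0.66 (1280, 909 and 1038 CPM against 608, 683 and 671 CPM). Pgk1 fell by 0.47 and Tpi1 by 0.40. They lost the call in 4 and 5 of 15 alternatives, both of them in the fit without the control library. Tpi1 was at 1191, 736 and 977 CPM in the low and 689, 657 and 750 CPM in the high state, and Pgk1 at 1600, 1303 and 1094 CPM and 792, 978 and 1006 CPM. Ldha was at 2054, 1356 and 1848 CPM in the low and 1239, 1414 and 1502 CPM in the high state, a difference of −0.28 ± 0.13 that did not pass (edgeR adjusted p = 0.12). Reads of Eno1 may be shared with its near-identical retrogene Eno1b, which was counted at 12.9, 10.3 and 13.2 CPM in the low state, and Gapdh has many processed copies in the genome.

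Aldolases parted. Aldoa, the main form, was at 1001, 797 and 923 CPM in the low and 745, 824 and 973 CPM in the high state and did not pass. Aldoc, the aldolase best known from brain, was at 58.3, 37.3 and 74.0 CPM in the low, 114, 105 and 127 CPM in the middle and 116, 131 and 107 CPM in the high state. It rose by 1.13 ± 0.19 (SE of the fit, 3 libraries) on the log2 scale between low and high (edgeR adjusted p = 0.00098). Every middle or high value lay above every low value.

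**Figure D4:**
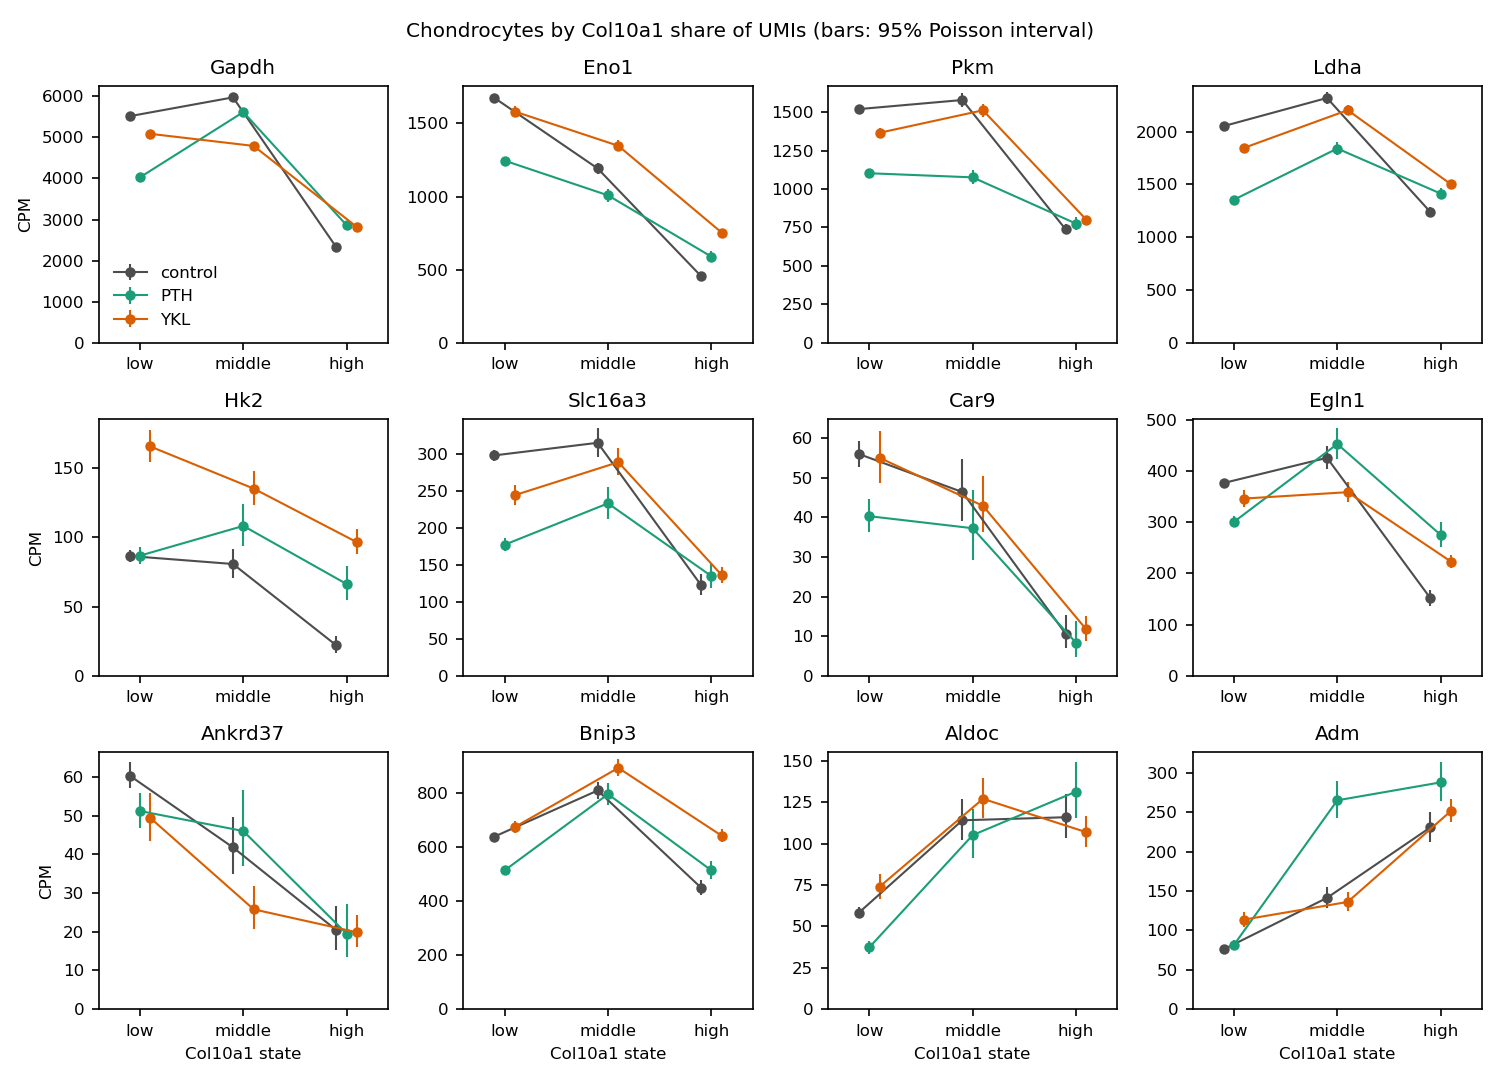
Levels of 12 members (CPM, vertical axis from 0) in chondrocytes of low, middle and high Col10a1 (horizontal axis) for each library (colour), with 95% Poisson intervals. Gapdh, Eno1, Pkm, Slc16a3, Car9 and Ankrd37 are lowest in the high state in each library, and Aldoc and Adm are above their low-state level in the middle and high states.

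Genes that regulate flux and remove acid followed the enzymes in part. Slc16a3 was at 298, 177 and 244 CPM in the low and 123, 135 and 136 CPM in the high state. It fell by 0.80 ± 0.14 (SE of the fit, 3 libraries, edgeR adjusted p = 0.0012). Car9 had the largest fall of the list, 2.25 ± 0.13 (edgeR adjusted p = 1.4e-06), from 56.0, 40.3 and 55.0 CPM to 10.6, 8.35 and 11.7 CPM, on 27, 15 and 56 UMIs in the high sums. In the middle state it was at 46.4, 37.3 and 42.9 CPM, so most of the difference lay between middle and high. Car12, another membrane carbonic anhydrase, was at 115, 112 and 158 CPM in the low and 161, 104 and 147 CPM in the high state and did not pass. Pdk1, a pyruvate dehydrogenase kinase gene, fell by 0.50 from 52.0, 50.3 and 51.8 CPM to 36.9, 31.2 and 37.0 CPM, with no overlap. It lost the call with thinned cells (edgeR adjusted p = 0.069). Pfkfb3 and Pfkfb4 did not pass.

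Both Egln members fell and Hif1a did not pass. Egln1, the main HIF hydroxylase, was at 376, 301 and 346 CPM in the low and 152, 275 and 223 CPM in the high state and fell by 0.64 (edgeR adjusted p = 0.018), a call lost in 4 of 15 alternatives, among them those without the control or the YKL library. Egln3 fell by 1.29 ± 0.25 (edgeR adjusted p = 0.0022), from 16.2, 13.3 and 17.5 CPM to 3.54, 3.90 and 10.5 CPM, and low and high values did not overlap. Hif1a was at 440, 407 and 399 CPM in the low and 315, 365 and 367 CPM in the high state, a difference of −0.21 ± 0.09 (edgeR adjusted p = 0.098). Sensors of the wider list went other ways. Egln2 did not pass (34.4, 31.1 and 29.7 CPM low, 35.4, 33.4 and 20.9 CPM high), and Hif1an, which encodes the asparagine hydroxylase that blocks HIF activity, rose by 0.56 on the log2 scale, from 12.4, 10.1 and 11.2 CPM to 16.9, 15.0 and 16.5 CPM. HIF-1 is controlled mainly through protein stability, which RNA counts do not show.

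Of the 3 mitochondrial members 1 fell. The mitophagy receptor genes Bnip3 and Bnip3l did not pass, while Higd1a, which stabilises respiratory complexes in low oxygen, fell by 0.46, from 2327, 1379 and 1716 CPM to 1164, 1188 and 1386 CPM. P4ha1 and P4ha2 both fell, by 0.59 and 0.46. P4ha1 went from 634, 535 and 587 CPM to 347, 417 and 374 CPM and P4ha2 from 709, 540 and 655 CPM to 372, 461 and 507 CPM, with no overlap in either. Ankrd37 fell by 1.35 ± 0.16 (SE of the fit, 3 libraries, edgeR adjusted p = 0.00010). It was at 60.4, 51.2 and 49.4 CPM in the low and close to 20 CPM in each high sum (20.4, 19.5 and 19.9). Ndrg1 fell by 0.72, from 81.9, 68.6 and 85.7 CPM to 36.5, 52.3 and 51.6 CPM, and Ddit4, a brake on mTOR signalling, did not pass. Higd1a, P4ha2 and Ndrg1 lost their calls in 4, 3 and 2 of 15 alternatives, each of them in the fit without the control library. Adm was the member that rose most, by 1.54 ± 0.20 (edgeR adjusted p = 0.00020). It was at 75.8, 81.5 and 114 CPM in the low, 141, 265 and 136 CPM in the middle and 231, 288 and 252 CPM in the high state, and the low values lay below all the others.

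Between middle and low Col10a1 the members leaned the other way. Aldoc (1.05), Adm (0.95), Bnip3l (0.48) and Bnip3 (0.45) rose, Ankrd37 fell by 0.54 and 30 did not pass (edgeR), with 4.48% of all genes higher and 3.86% lower. The median of the members was 0.23 against −0.01 over all genes. By level, 18 members were higher in the middle than in the low state in each library, as were 23.5% of all genes. Bnip3 was at 639, 514 and 674 CPM in the low, 810, 796 and 893 CPM in the middle and 450, 514 and 642 CPM in the high state, so the middle values lay above all others. Bnip3l was at 399, 334 and 378 CPM in the low, 506, 587 and 472 CPM in the middle and 323, 410 and 405 CPM in the high state, so that in the PTH and YKL libraries its high state lay above its low state. These calls rest on few libraries. Without the control library 0 members rose by edgeR's adjusted p, although 11 were higher at an unadjusted p under 0.05. Without the PTH library 1 rose and without the YKL library 3 did. The all-gene shares given are those of the main fit only. DESeq2 on all 3 libraries called 4 higher and 0 lower. The fall of Ankrd37, at an edgeR adjusted p of 0.049, was lost in each of these, and its middle-state values were 41.8, 46.1 and 25.8 CPM.

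A wider list of 61 genes of sugar and oxygen metabolism was measured in the same fit, 46 of them past the filter. Between high and low Col10a1 9 rose, 15 fell and 22 did not pass (all genes 20% and 21.3%), with a median of −0.20. The falls numbered 7 without the control library, 15 without the PTH library and 10 without the YKL library, 10 without the library term and 10 with cells thinned to 2000 UMIs, and 8 at boundaries of 0.02% and 0.2%. The rises numbered 7 to 8 without 1 library and 5 with thinned cells. For these alternatives, too, the all-gene shares are those of the main fit only. The largest rises were in Epas1, which encodes HIF-2α (3.72), Cited2, a HIF-induced inhibitor of HIF (2.70), the fructose transporter gene Slc2a5 (2.42) and Pdk4 (2.05). Epas1 was at 2.99, 7.39 and 6.58 CPM in the low, 12.1, 40.4 and 22.0 CPM in the middle and 57.7, 76.3 and 63.3 CPM in the high state, with no overlap between states. Cited2 was at 49.95, 51.2 and 56.6 CPM in the low and 269, 406 and 328 CPM in the high state. The largest falls were in Eno2 (−1.84), Eno1b (−1.30) and the collagen lysyl hydroxylase genes Plod2 (−1.10) and Plod1 (−1.02). Plod2 went from 1663, 1359 and 1254 CPM to 658, 678 and 588 CPM. Vegfa, the vessel growth factor gene that is a textbook HIF target, rose by 1.28, from 97.4, 69.6 and 143 CPM to 172, 258 and 309 CPM, as did Adm. Between middle and low 9 of the 46 rose (4.48% of all genes) and 0 fell (3.86%) by edgeR's adjusted p. At an unadjusted p under 0.05, 14 were higher and 2 lower, and DESeq2 called 7 and 0. The rises numbered 4 without the control library, 4 without the PTH library and 6 without the YKL library. They numbered 5 with thinned cells or without the library term. No share over all genes stands beside the unadjusted, DESeq2 and alternative counts.

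The treatments were compared in chondrocytes as ratios of CPM, with no test, since each is 1 library. Most control chondrocytes lay in clusters 0 and 1, and most YKL chondrocytes in clusters 2, 3 and 6. PTH against control had 0 of 35 members at least 1.5-fold higher and 4 at least 1.5-fold lower, beside 6.12% of all genes higher and 3.13% lower, and a median log2 ratio of −0.24 (all genes −0.00). The 4 were Ddit4 at 0.576 (95% counting interval 0.488 to 0.677), Higd1a at 0.627 (0.617 to 0.638), Slc16a3 at 0.635 (0.606 to 0.665) and Tpi1 at 0.652 (0.638 to 0.667). Ddit4 stood at 25.1 CPM in control and 14.5 CPM in PTH chondrocytes and Higd1a at 2234 and 1401 CPM. Adm had the highest ratio, 1.38 (1.30 to 1.46). The libraries hold different shares of the Col10a1 states. With the states weighted equally 0 members were 1.5-fold lower (512 of 11578 genes), and the median was −0.08. Gpi1, Pfkfb3, Hif1a, Egln1 and Bnip3l then changed direction. The median was −0.32 in the low, −0.12 in the middle and 0.19 in the high state, where all genes had −0.00, −0.00 and −0.07. In the low state 0 of 35 members were at least 1.5-fold higher (6.54% of all genes) and 6 lower (3.7%), namely Aldoc, Tpi1, Ldha, Slc16a3, Higd1a and Ddit4. In the middle state only Adm of 33 was higher (6.61%) and 0 were lower (5.32%). In the high state Hk2, Pfkfb3 and Egln1 of 31 were higher (4.55%) and Car12 and Ddit4 lower (7.75%). Of the 31 members measured in both, 21 had a ratio below 1 in the low and above 1 in the high state, beside 17.8% of all genes.

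YKL against control had 2 of 35 members at least 1.5-fold higher and 2 lower, beside 9.33% and 9.46% of all genes, and a median of −0.14 (all genes −0.03). Adm was at 1.72 (1.62 to 1.82), from 98.7 to 169 CPM, and Hk2 at 1.67 (1.57 to 1.78), from 79.5 to 133 CPM. Hk2 was the one member at least 1.5-fold higher in every state, at 1.91 (1.76 to 2.08) in the low, 1.67 (1.43 to 1.96) in the middle and 4.38 (3.31 to 5.89) in the high state. The YKL and control low sums also differed in bone-cell markers, with osteoblast markers at 1.34% against 0.510% of UMIs, Col1a1 at 8170 against 3486 CPM and Ifitm5 at 27.7 against 0.393 CPM. Of the 158 YKL low-state cells 79 lay in cluster 2 and 59 in cluster 6, and of the 1227 control ones 458 lay in cluster 0 and 434 in cluster 1. The part of these differences in the ratios was not tested. Adm was at 75.8 CPM in control and 114 CPM in YKL cells of the low state, and its ratio was 0.963 in the middle and 1.09 in the high state. In the low state Hk2 alone of 35 was at least 1.5-fold higher (7.35% of all genes) and 0 were lower (9.64%). In the middle state Hk2 and Ddit4 of 33 were higher (6.2%) and Ankrd37 lower (3.49%). The lower members were Slc2a3 at 0.452 (0.297 to 0.667), at 5.35 and 2.42 CPM, and Ankrd37 at 0.601 (0.538 to 0.669), at 54.3 and 32.6 CPM. Ankrd37 was at 0.819 in the low, 0.617 in the middle and 0.972 in the high state. In the high state the median over 33 members was 0.22 (all genes −0.04), with Hk2, Egln3 at 2.96 (1.44 to 6.84) and Eno1 at 1.65 (1.55 to 1.77) at least 1.5-fold higher, beside 7.09% of all genes, and 0 lower (6.18%). In the high state Hk2 was also higher in the PTH library, at 3.01 (2.17 to 4.21). These ratios share the control high sum, in which Hk2 stood at 22.0 CPM.

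**Figure D5:**
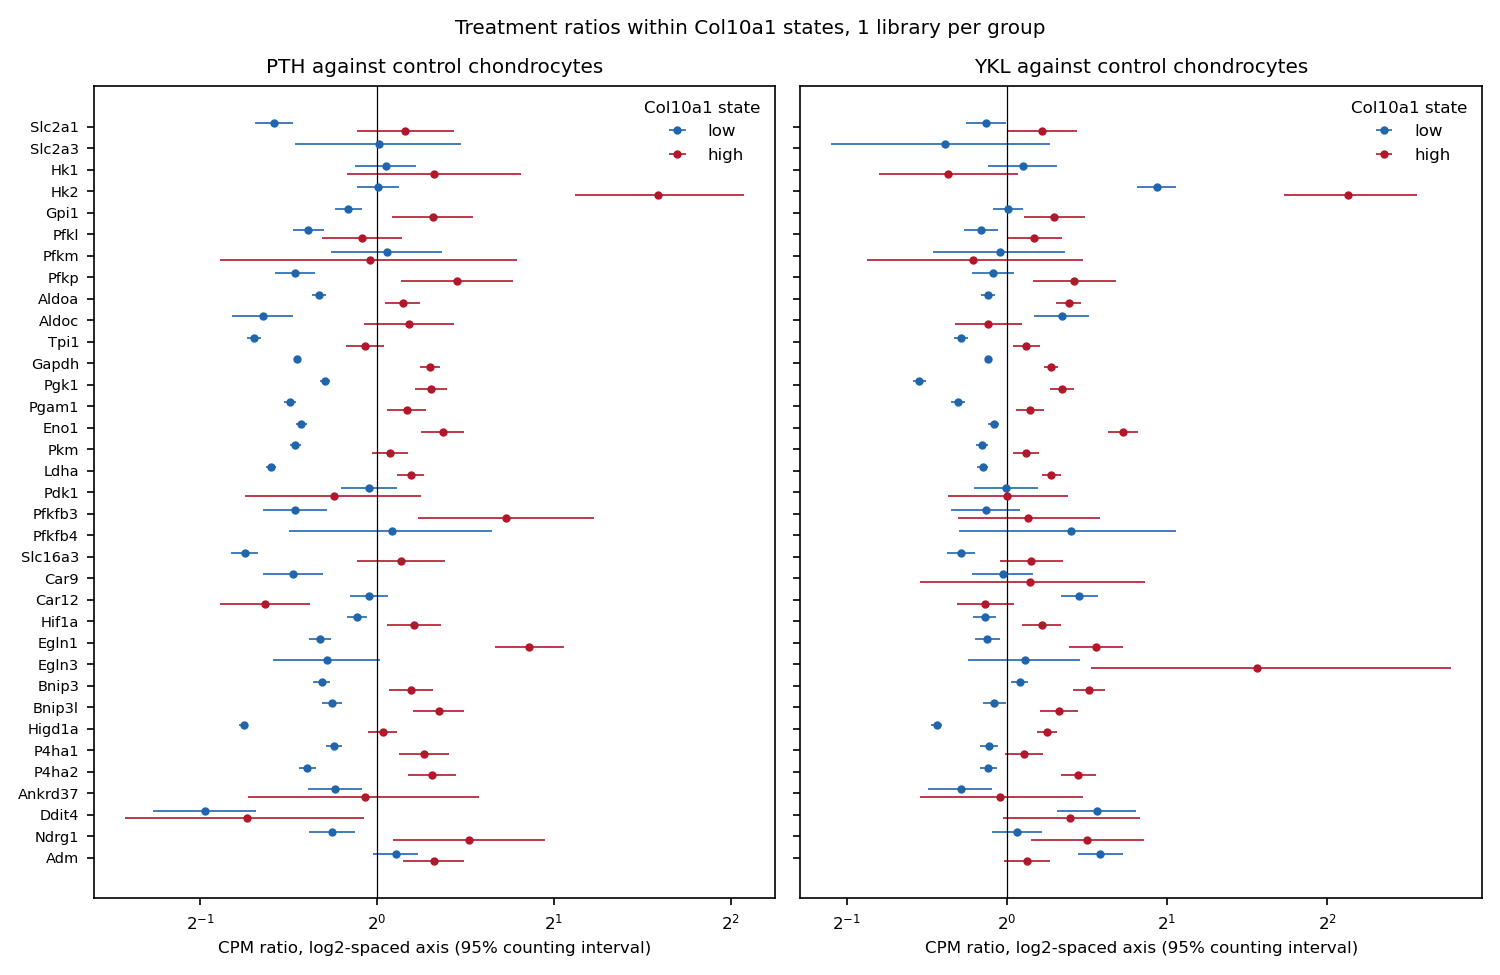
CPM ratios of each member to the control library in chondrocytes of low (blue) and high (red) Col10a1, on a log2-spaced axis with 95% counting intervals, PTH on the left and YKL on the right, for members with at least 50 UMIs. In PTH most blue points lie below 1 and most red points above it, and Hk2 has the highest red point in both panels.

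YKL against PTH had 3 of 35 members at least 1.5-fold higher (6.35% of all genes) and 1 lower (8.2%), with a median of 0.14 (all genes −0.01). Ddit4 was at 2.43 (2.05 to 2.89), at 35.2 CPM in YKL and 14.5 CPM in PTH chondrocytes, and it was above 1.5 in each state, from 1.60 in the middle to 2.89 in the low. Aldoc was at 1.67 (1.53 to 1.82) and Hk2 at 1.52 (1.41 to 1.64), and Slc2a3 was lower, at 0.447 (0.285 to 0.687). In the low state Hk2, Aldoc and Ddit4 of 35 were higher (6.05%) and 0 lower (9.5%). In the middle state Ddit4 of 33 was higher (6.21%) and Ankrd37 and Adm lower (5.66%). In the high state Egln3 and Ddit4 of 33 were higher (7.07%) and Hk1 and Pfkfb3 lower (3.64%). YKL and PTH share no library, but each is also set against the same control, so the 3 sets of ratios are not independent.

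Endothelial cells were the other class with at least 50 cells in each library (158, 284 and 50). PTH against control had 2 of 24 members at least 1.5-fold higher (6.73% of all genes) and 1 lower (4.43%). Ddit4 was at 2.12 (1.41 to 3.27), from 25.8 to 54.6 CPM. This was about level with chondrocytes in the control library and above them in the PTH library. P4ha2 was at 1.86 (1.12 to 3.22), from 17.2 to 31.9 CPM, with chondrocytes of the same libraries at 685 and 555 CPM. Col2a1 in these endothelial cells was at 613 and 1172 CPM, so it moved the same way, and its part in the P4ha2 ratio was not tested. Slc2a1 was at 0.638 (0.407 to 1.01). YKL against control had 1 of 19 members higher (9.2% of all genes) and 2 lower (7.43%). Ddit4 was at 2.34 (1.37 to 4.03), and Pfkp at 0.529 (0.313 to 0.857) and Tpi1 at 0.639 (0.464 to 0.868) were lower. Without cells over 5% mitochondrial UMIs, 5 of 19 members were higher in PTH endothelial cells (437 of 4016 genes). In YKL endothelial cells 0 of 14 were (269 of 2594 genes).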

How the data were processed

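For the single-cell libraries of fracture callus the authors deposited matrices of raw counts, in UMIs of each gene in each barcode. Per the file headers these came from Cell Ranger 4.0.0. The submitters' processing notes also name Seurat and build mm10. Strand and multimapping settings are not given in the sources used here. The 3 libraries held 55250651 (control), 33981167 (PTH) and 19424073 (YKL) UMIs in 8021, 5286 and 1500 barcodes.

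Kept cells had 500 genes or more and no more than 10% of UMIs from mitochondrial genes. The mitochondrial maximum removed 17.6%, 44.5% and 18.5% of barcodes. Scrublet marked 1.36%, 0.366% and 1.32% of the barcodes left, too few to have worked in the PTH library, so doublets are taken to remain. Cells scaled to 10000 UMIs, 2000 variable genes, 30 principal components and 15 neighbours gave Leiden clusters (resolution 0.8, scanpy 1.11.5), with no integration. A cluster was named when at least 2 markers of a class stood among its 10 leading genes and at least 3 were detected, unless another class had a larger share of its markers detected or haemoglobin passed 10% of UMIs. This rule was settled after a first version had left the macrophage cluster unnamed and had named cluster 17, now unnamed, as neutrophil.

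Counts were summed per library and class or state and tested with edgeR 4.0.16 (TMM, quasi-likelihood, library as block), with DESeq2 1.42.0 as an alternative. Sums needed 20 cells. A treatment ratio needed 50 UMIs in its 2 libraries combined and has an exact conditional binomial interval, and a level has an exact Poisson interval. The code was tested on simulated data. Of 2 rows named Aldoa, ENSMUSG00000030695 was used. The members, gene lists, tests and 15 alternatives of the state comparison were chosen with earlier results of these data known. Named with full values were members past the threshold between high and low Col10a1, the largest and smallest treatment ratios, and the 4 largest rises and falls of the wider list. Vegfa was named outside this rule, after its value was seen, and Slc2a3 is shown although it rests on few UMIs.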

Additional observations from a re-analysis of the deposited data

Results flagged for a closer look

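In the results below 2 ratios of the same contrast lay on opposite sides of 1, with counting intervals that excluded 1. The 2 ratios were also at least 2-fold apart, and pairs closer than that are not listed. Each rests on 1 library per group. None of these differences was tested.

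Between Col10a1 states, Pfkfb3 in PTH against control chondrocytes was at 1.66 (95% counting interval 1.17 to 2.34) in the high and at 0.726 (0.640 to 0.822) in the low state. Egln1 in the same contrast was at 1.81 (1.58 to 2.08) in the high and 0.799 (0.765 to 0.834) in the low state. Aldoc in YKL against PTH chondrocytes was at 0.813 (0.696 to 0.953) in the high and 1.98 (1.71 to 2.30) in the low state. In all, 21 of 31 members had PTH ratios below 1 in the low and above 1 in the high state, beside 17.8% of all genes.

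Between cell classes in PTH against control, P4ha2 was at 0.810 (0.788 to 0.832) in chondrocytes and 1.86 (1.12 to 3.22) in endothelial cells, in which Col2a1 also stood higher. Ddit4 was at 0.576 (0.488 to 0.677) in chondrocytes and 2.12 (1.41 to 3.27) in endothelial cells.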

How the results depend on the processing

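Of the 22 members called between high and low Col10a1, 11 stayed past the threshold under each of the 15 alternatives that gave them a value, and 0 changed direction. These 11 were Aldoc, Gapdh, Pgam1, Eno1, Pkm, Slc16a3, Car9, Egln3, P4ha1, Ankrd37 and Adm. The number that fell was 20, 13 with boundaries of 0.02% and 0.2%, and 11 to 22 when a library was left out. No share over all genes stands beside the alternative counts of the state comparison. In the fit without the replicate block (the library term) 17 fell and 2 rose, and 1 rose and 0 fell between middle and low. Same-numbered samples do not pair across treatments, so the block is the library itself. For the treatment ratios no paired analysis was possible because each group is 1 library.

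Between middle and low, 4 rose and 1 fell. The number that rose was 8 with boundaries of 0.02% and 0.2%, 2 with 0.1% and 1%, 2 with cells thinned to 2000 UMIs, and 0 to 3 when a library was left out. The number that fell was 3 with 0.1% and 1%, 2 with no filter on low counts, and 0 with RLE size factors, totals only, abundant matrix genes left out, DESeq2, boundaries of 0.02% and 0.2%, thinned cells, a minimum of 1000 genes, chondrocytes chosen by Col2a1, or a library left out (0 to 0). At boundaries of 0.02% and 0.2% the log2 difference of Ankrd37 was 0.00814. The cause was not tested.

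With states weighted equally PTH against control had 0 lower members (512 of 11578 genes). Gpi1 was then at 1.07, Pfkfb3 1.06, Hif1a 1.01, Egln1 1.08 and Bnip3l 1.08. YKL against control then had 1 higher (720 of 11567 genes) and 1 lower (649 of 11567 genes), with a median of 0.0076. In it Gpi1 was at 1.06, Pfkp 1.01, Eno1 1.11 and P4ha2 1.02. YKL against PTH then had Bnip3l at 0.942 and Adm at 0.790. With thinned cells YKL against control had 4 higher (556 of 6175 genes) and Pfkp at 1.11. YKL against PTH had 0 lower (420 of 4532 genes), Hk1 at 1.05 and P4ha1 at 1.00. With a minimum of 200 UMIs 1 was lower in YKL against control (580 of 8710 genes) and 0 in YKL against PTH (385 of 7721 genes). With chondrocytes chosen by Col2a1 Egln1 was at 1.00 in YKL against PTH. In endothelial cells thinning left 0 of 14 members higher in PTH (197 of 2674 genes), with Higd1a at 0.814. In YKL it left 0 of 12 higher (129 of 1204 genes) and 4 lower (132 of 1204 genes). A mitochondrial maximum of 5% gave 5 higher (437 of 4016 genes) and 0 lower (216 of 4016 genes) of 19 in PTH. The median was 0.26 and Tpi1 was at 1.15. In YKL this maximum gave 0 higher (269 of 2594 genes) and 1 lower (209 of 2594 genes) of 14. A minimum of 1000 genes gave 2 lower in PTH (324 of 7262 genes). Endothelial depth limits those ratios to 24 and 19 members in the main setting.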
